A study of Rattus norvegicus with 8 samples.

Results

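The matrix metalloproteases Mmp2, Mmp3, Mmp13 and Mmp14 and the tissue inhibitors of metalloproteases Timp1, Timp2 and Timp3 were measured in single-cell RNA libraries of rat fracture callus, the tissue that forms around a break and is remodelled into bone. These 7 genes were chosen by name, 4 proteases and 3 inhibitors among the 12282 genes listed in any of the 8 libraries. All 7 were listed in 7 libraries, and 6 in the magnesium library of week 12, where Mmp13 was not listed. Each library was 1 combination of treatment and week after fracture of the femur in Sprague Dawley rats, at week 12 or week 4. The magnesium libraries came from rats given zoledronate and magnesium, and the CGRP libraries from rats given zoledronate and CGRP (calcitonin gene-related peptide, a neuropeptide of sensory nerves). The zoledronate libraries came from rats given that drug alone, and the control libraries from rats labelled as untreated. The label that describes dosing is the same on every sample, the control ones included, so that these rats went without the drug rests on their treatment label alone. Zoledronate, a bisphosphonate that slows bone resorption, was injected under the skin at 0.3 mg/kg each week for 12 weeks before the fracture. The magnesium, CGRP and zoledronate libraries thus shared the drug, and the magnesium and CGRP libraries are set against zoledronate alone. Fractures were closed and held with nails of stainless steel or nails that contained magnesium. Which nail each group received is not stated in the labels, nor are the dose of CGRP, the age of the rats or the number of animals per library. Cells were released from the callus by 4 h of collagenase A and cultured for 24 h, so the libraries describe cells that had been in a dish.

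Matrix metalloproteases are zinc enzymes that cut collagens and other proteins of the extracellular matrix, and most are made as inactive precursors. Mmp14 sits in the cell membrane, where it cuts collagen and, with Timp2 as a bridge, activates the secreted gelatinase encoded by Mmp2. Mmp13 is the main collagenase of rodent cartilage and bone, and in a callus it is known from hypertrophic chondrocytes and osteoblasts. Mmp3, a stromelysin, cuts many matrix proteins and activates other metalloproteases. The inhibitors bind the active enzymes. Timp1 and Timp2 are secreted and soluble, whereas Timp3 binds to the matrix and also inhibits ADAM and ADAMTS proteases. The values here are transcript counts, and the activity of the enzymes was not measured.

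The libraries held 6809 to 10370 barcodes with at least 5000 UMIs (unique molecular identifiers, 1 per captured transcript), 65208 of 69624 barcodes in all, with 139656712 to 159685281 UMIs per library. Values are CPM, the UMIs of a gene per 1000000 UMIs summed over these barcodes, with exact Poisson 95% intervals that cover counting error only. There was 1 library per group, so differences describe these libraries and carry no test. A gene is called past the fold where the ratio of CPM plus 1 was at least 1.5-fold in either direction. Markers of fibroblastic cells summed to 23877 to 41902 CPM over 10 genes, nearly all from Col1a1, Col1a2 and Col3a1. The list for mural (vessel wall) cells, with Rgs5 not listed, summed to 9992 to 18228 CPM. Only 4 of its 10 genes averaged at least 10 CPM, and which cells carried them was not tested. The skeletal muscle list, with Ckm, Myod1, Myog and Pax7 not listed, summed to 33.7 to 181 CPM, with 1 of 10 genes at that level. Markers of macrophages summed to 0.510 to 8.86 CPM, with 5 of 10 not listed. Those of endothelial cells summed to 39.2 to 52.1 CPM, with Cdh5 and Emcn not listed and 1 of 10 averaging at least 10 CPM. The osteoclast list summed to 59.2 to 163 CPM, nearly all from Acp5 and Ctsk, with Calcr, Dcstamp and Ocstamp not listed. Any 2 libraries shared at most 26 barcodes.

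The soluble inhibitors were abundant in every library, and most protease transcripts were those of Mmp2. Timp1 and Timp2 each stood between 794 and 1280.2 CPM in every library, Mmp2 between 64.2 and 529.5 CPM, and Mmp14 between 59.1 and 108 CPM. Timp3 lay between 1.58 and 45.8 CPM, Mmp13 between 0.0385 and 4.71 CPM where listed, and Mmp3 between 0.231 and 1.03 CPM. Among the 5914 genes with a mean of at least 10 CPM that were listed in all 8 libraries, the median standard deviation of log2 CPM over the libraries was 0.17. For Mmp2 this spread was 0.996, larger than in 98.1% of these genes, and for Timp3 it was 1.41, larger than in 99.2%. Mmp14 had a spread of 0.32 (81.8%), Timp1 of 0.22 (65.6%) and Timp2 of 0.12 (27.0%). Among these 5 genes Mmp2 and Timp3 thus differed most between libraries, and Timp2 differed less than the median gene. Mmp3 and Mmp13 were too low for this comparison. Where listed, Mmp13 had the widest range of the 7, from 0.0385 to 4.71 CPM, on few UMIs.

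**Figure D1:**
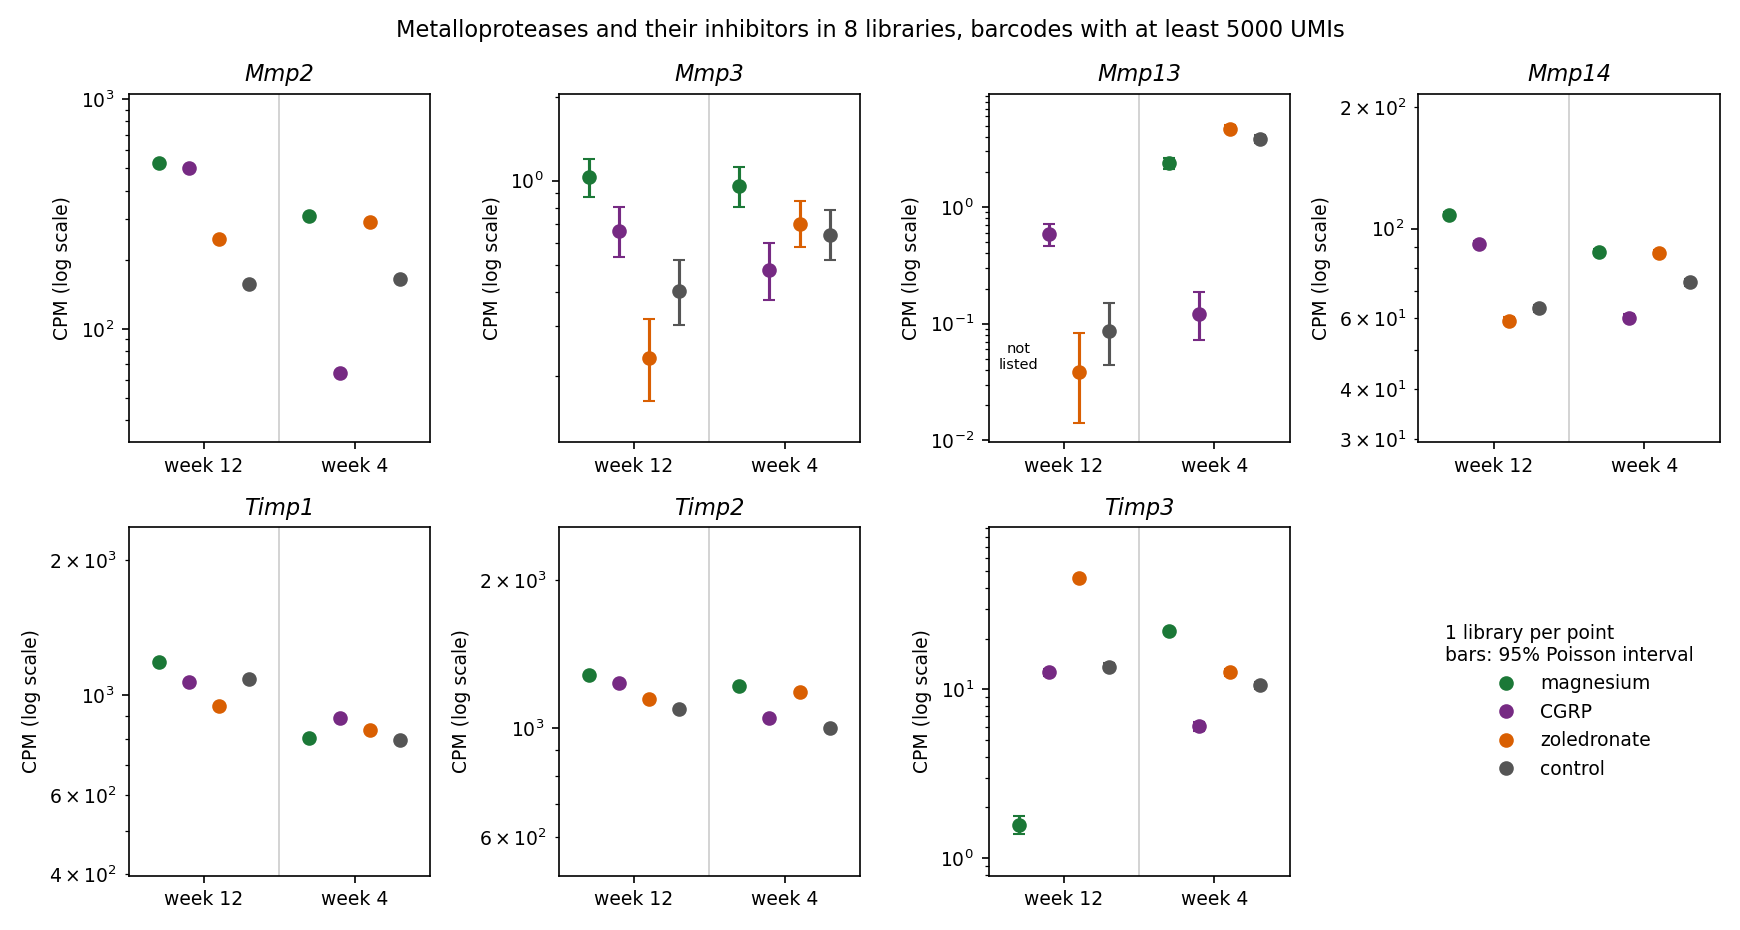
CPM of the 7 genes in the 8 libraries on log scales, 1 point per library with its exact Poisson 95% interval, week 12 left of week 4 and magnesium, CGRP, zoledronate and control in that order. Mmp2 is high in the magnesium and CGRP libraries of week 12 and lowest in the CGRP library of week 4. Timp1 and Timp2 have the narrowest ranges, and Timp3 is highest in the zoledronate library and lowest in the magnesium library of week 12.

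Mmp2, the gelatinase, carried most of the protease transcripts. At week 12 it stood at 529.5 CPM in the magnesium library (95% interval 525.9 to 533.1), 503 CPM in the CGRP library, 247 CPM in the zoledronate library and 157 CPM in the control library. At week 4 it stood at 310.3 CPM in the magnesium library, 64.2 CPM in the CGRP library (63.0 to 65.5), 293 CPM in the zoledronate library and 166 CPM in the control library. The highest library was 8.24 times the lowest. The 8 counting intervals did not overlap, but at this depth the same held for Timp2, whose highest library was 1.28 times its lowest. How many of all genes had no overlap was not counted. The order at week 12 was magnesium, CGRP, zoledronate, control, whereas at week 4 the CGRP library stood at the bottom.

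The difference in Mmp2 lay across most barcodes of a library and not in a few. To compare barcodes at 1 depth, each was thinned at random to 5000 UMIs. After thinning, Mmp2 was seen in 85.8% of magnesium, 84.0% of CGRP, 61.5% of zoledronate and 48.8% of control barcodes at week 12. At week 4 it was seen in 66.6% of magnesium, 22.9% of CGRP, 64.5% of zoledronate and 45.9% of control barcodes. Without thinning these shares were 99.0%, 96.9%, 88.7% and 81.6% at week 12 and 93.5%, 50.6%, 91.8% and 79.3% at week 4, in the same order. Thinned barcodes with 7 or more Mmp2 UMIs made up 7.08% of the magnesium, 6.73% of the CGRP and 1.37% of the zoledronate library of week 12. Free RNA in the droplets can add UMIs to any barcode, and no cell class known to lack these genes was at hand to measure it. In barcodes under 5000 UMIs, Mmp2 CPM was 1.84 to 3.42 times the value above it, and Mmp14 CPM 2.06 to 2.77 times. Their part in the differences was not tested.

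**Figure D2:**
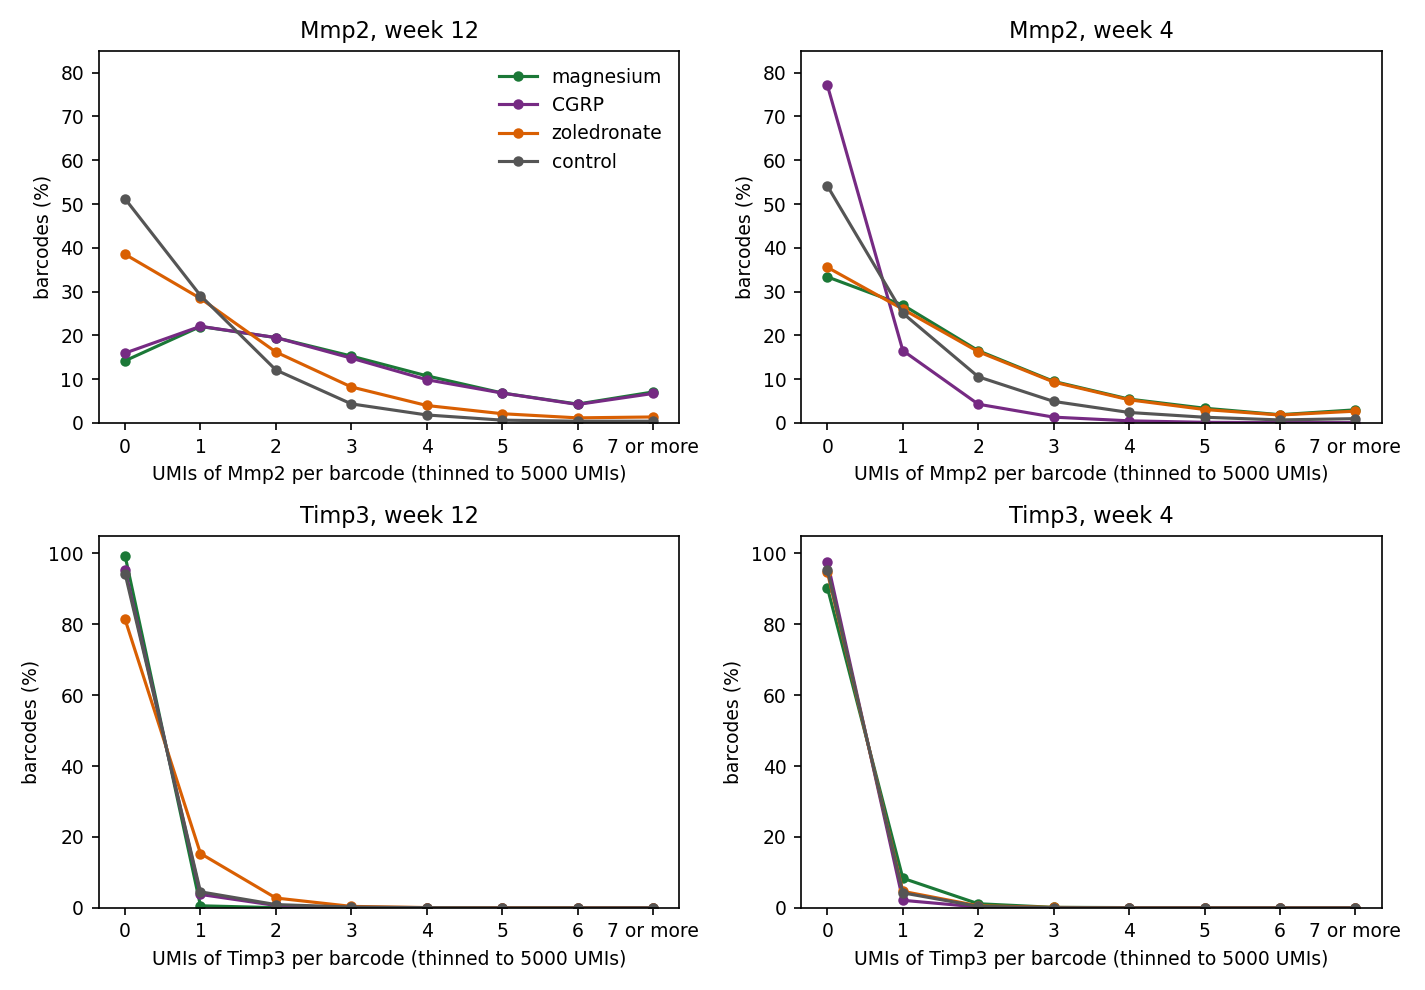
Share of barcodes in % by the number of UMIs of Mmp2 (top) and Timp3 (bottom) after thinning to 5000 UMIs, week 12 on the left and week 4 on the right, 1 line per library. At week 12 the Mmp2 curves of the magnesium and CGRP libraries nearly coincide and lie to the right of zoledronate and control, and at week 4 77.1% of CGRP barcodes have 0 Mmp2 UMIs; 18.6% of zoledronate barcodes at week 12 have a Timp3 UMI.

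Mmp14, the membrane protease that activates the product of Mmp2, varied less. At week 12 it was at 108 CPM in the magnesium library, 91.8 CPM in the CGRP library, 59.1 CPM in the zoledronate library and 63.5 CPM in the control library. At week 4 it was at 87.5 CPM in the magnesium library, 60.2 CPM in the CGRP library, 86.9 CPM in the zoledronate library and 73.6 CPM in the control library. The magnesium library of week 12 was the highest, as for Mmp2, but the lowest was zoledronate at week 12, whose interval overlapped that of CGRP at week 4. The zoledronate and magnesium libraries of week 4 also overlapped. After thinning, Mmp14 was seen in 41.0%, 35.9%, 25.5% and 26.8% of the magnesium, CGRP, zoledronate and control barcodes of week 12, and in 34.6%, 25.9%, 35.0% and 30.6% of those of week 4.

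Mmp2 UMIs outnumbered Mmp14 UMIs in every library, by 5.48 to 1 in CGRP at week 12 and by 1.07 to 1 in CGRP at week 4. Mmp2 accordingly made up 84.4% of the UMIs of the 4 proteases in the CGRP library of week 12 and 51.4% in that of week 4, with Mmp14 supplying 15.4% and 48.2%. In the other 6 libraries the Mmp2 share lay between 68.0% and 82.9%. In thinned barcodes with an Mmp2 UMI, the share with an Mmp14 UMI was 37.6% against 30.2% of those without Mmp2 in zoledronate at week 4. It was 37.2% against 29.2% in CGRP at week 12, and 26.7% against 26.9% in control at week 12. The share was higher with an Mmp2 UMI in 7 of 8 libraries.

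Timp1 and Timp2 were present in nearly every barcode. Timp1 was at 1185, 1069, 946 and 1085 CPM in the magnesium, CGRP, zoledronate and control libraries of week 12, and at 802, 890.3, 836 and 794 CPM in those of week 4. The 4 libraries of week 12 thus all lay above the 4 of week 4 for Timp1, and the highest was 1.49 times the lowest. Timp2, the inhibitor that also helps to activate Mmp2, was at 1280.2, 1235, 1147 and 1092 CPM in the magnesium, CGRP, zoledronate and control libraries of week 12. At week 4 it was at 1218, 1049, 1184 and 1001 CPM in the same order, and its highest library was 1.28 times its lowest. Thinned barcodes had a Timp1 UMI in 94.8% to 98.3% of cases and a Timp2 UMI in 98.4% to 99.4%. Per 100 Timp2 UMIs there were 92.5, 86.6, 82.4 and 99.4 Timp1 UMIs at week 12 and 65.8, 84.9, 70.6 and 79.3 at week 4, in magnesium, CGRP, zoledronate and control.

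Timp3, the inhibitor held in the matrix, was a minor inhibitor transcript with a large range. At week 12 it was at 1.58 CPM in the magnesium library (252 UMIs), 12.6 CPM in the CGRP library, 45.8 CPM in the zoledronate library (7141 UMIs) and 13.6 CPM in the control library. At week 4 it was at 22.1 CPM in the magnesium library, 6.04 CPM in the CGRP library, 12.6 CPM in the zoledronate library and 10.6 CPM in the control library. The zoledronate library of week 12 was 29.0 times the magnesium library of the same week, the largest and smallest of the 8. The intervals of zoledronate at week 4, CGRP at week 12 and control at week 12 overlapped in turn. After thinning, 0.650% of magnesium, 4.62% of CGRP, 18.6% of zoledronate and 5.71% of control barcodes of week 12 had a Timp3 UMI, against 9.73%, 2.40%, 5.36% and 4.71% at week 4. Even at its highest Timp3 supplied 2.14% of the UMIs of the 3 inhibitors, so it hardly moved their sum.

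Mmp13, the collagenase, was rare and lay in few barcodes. At week 12 it was not listed in the magnesium library, and it was at 0.585 CPM in the CGRP library (86 UMIs), 0.0385 CPM in the zoledronate library (6 UMIs) and 0.0859 CPM in the control library (12 UMIs). At week 4 it was at 2.37 CPM in the magnesium library (355 UMIs), 0.121 CPM in the CGRP library (19 UMIs), 4.71 CPM in the zoledronate library (739 UMIs) and 3.84 CPM in the control library (569 UMIs). Every deposited table listed only genes seen in at least 5 barcodes, so a gene that is not listed can still have had a few UMIs. The magnesium, zoledronate and control libraries of week 4 stood above all others, and the intervals of zoledronate at week 12, control at week 12 and CGRP at week 4 overlapped in turn. The osteoblast marker list, with Col22a1 not listed, stood lower at week 12 in each treatment, at 270.0, 321, 404 and 327 CPM in magnesium, CGRP, zoledronate and control, against 1176, 775, 785 and 776 CPM at week 4. The chondrocyte list, with Col10a1 not listed, summed to 305, 903, 2069 and 1252 CPM at week 12 and to 2804, 2058, 2368 and 2522 CPM at week 4, in the same order. In thinned week 4 barcodes without Mmp13, Spp1 of the osteoblast list was at 1221, 754 and 740 CPM in magnesium, zoledronate and control. Col11a1 of the chondrocyte list was there at 2497, 2045 and 2241 CPM. These values are thinned and leave out barcodes with Mmp13, so they are not parts of the sums above, and Spp1 in magnesium exceeded its list sum. Spp1 and Col11a1 lay near the sums of their lists, but their share of each sum was not computed. The part of either list in the Mmp13 values was not tested. Mmp3, the stromelysin, was at 1.03, 0.659, 0.231 and 0.401 CPM in magnesium, CGRP, zoledronate and control at week 12 (164, 97, 36 and 56 UMIs), and at 0.954, 0.477, 0.702 and 0.641 CPM at week 4 (143, 75, 110 and 95 UMIs). All 7 pairs of neighbours in the order of Mmp3 had overlapping intervals, so at this depth only libraries further apart in that order could be told apart.

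The promoters of Mmp3 and Mmp13 are shown because these were the rare, unevenly spread proteases, and that of Timp3 because it was the inhibitor with the largest range. Each line gives the 200 bases before the RefSeq start of the gene in the GRCr8 assembly, 5′ to 3′ on the gene's strand, with matches to the 4 motifs named after them in capitals. The windows lie at chr8:12925081-12925280 on the plus strand for Mmp3, at chr8:12782629-12782828 on the plus strand for Mmp13, and at chr7:19459559-19459758 on the minus strand for Timp3.
Mmp3: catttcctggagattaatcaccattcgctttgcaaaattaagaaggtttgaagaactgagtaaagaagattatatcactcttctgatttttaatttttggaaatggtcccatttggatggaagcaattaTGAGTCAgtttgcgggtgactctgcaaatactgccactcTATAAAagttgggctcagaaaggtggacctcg
Mmp13: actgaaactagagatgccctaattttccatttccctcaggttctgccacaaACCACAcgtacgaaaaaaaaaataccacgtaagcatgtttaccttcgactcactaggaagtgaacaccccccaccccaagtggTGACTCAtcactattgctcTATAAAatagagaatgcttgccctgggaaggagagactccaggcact
Timp3: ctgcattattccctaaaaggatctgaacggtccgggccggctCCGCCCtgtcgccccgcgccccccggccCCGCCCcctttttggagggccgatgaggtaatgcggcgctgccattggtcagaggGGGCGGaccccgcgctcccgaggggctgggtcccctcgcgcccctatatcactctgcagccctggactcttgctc
Both strands were searched, and the distance of a match is counted from its first printed base to the start. The AP-1 motif was written TGANTCA, and 4.97% of 33469 RefSeq promoters of this length held it. For the Runx motif the letters were ACCACA, held by 11.5% of these promoters. The TATA box was taken as TATAAA, which 10.4% held. A GC box was taken as GGGCGG, which 28.6% held. No match in the 3 windows overlapped another. Mmp3 had an AP-1 match 71 bases and a TATA match 32 bases before its start. Mmp13 had a Runx match at 149 bases, an AP-1 match at 66 and a TATA match at 47. Timp3 had 3 GC boxes, at 158, 130 and 75 bases, and none of the other motifs. Timp1 and Timp2 had 1 GC box each, at 142 and 54 bases, and no AP-1, Runx or TATA match in this window. A match of letters is a description and not a bound site, and 5 of the 7 genes had a promoter entry, with Mmp2 and Mmp14 named only.

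The 4 proteases summed to fewer transcripts than the 3 inhibitors in every library, by a margin that moved with Mmp2. Per 100 inhibitor UMIs there were 25.9 protease UMIs in the magnesium library of week 12, 25.7 in CGRP, 14.3 in zoledronate and 10.1 in control. At week 4 there were 19.6 in magnesium, 6.43 in CGRP, 19.0 in zoledronate and 13.5 in control. The magnesium and CGRP libraries of week 12 were the highest and the CGRP library of week 4 the lowest. The ratio of Mmp2 to Timp2 alone had the same order at each week, with 41.4, 40.8, 21.5 and 14.4 Mmp2 UMIs per 100 Timp2 UMIs at week 12 and 25.5, 6.12, 24.8 and 16.5 at week 4, in magnesium, CGRP, zoledronate and control. The ratio of Mmp14 to Timp2 was flatter, between 5.15 in zoledronate and 8.46 in magnesium, both at week 12. Capture of a transcript can differ from gene to gene, so these ratios compare libraries and do not give the amounts of enzyme and inhibitor.

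**Figure D3:**
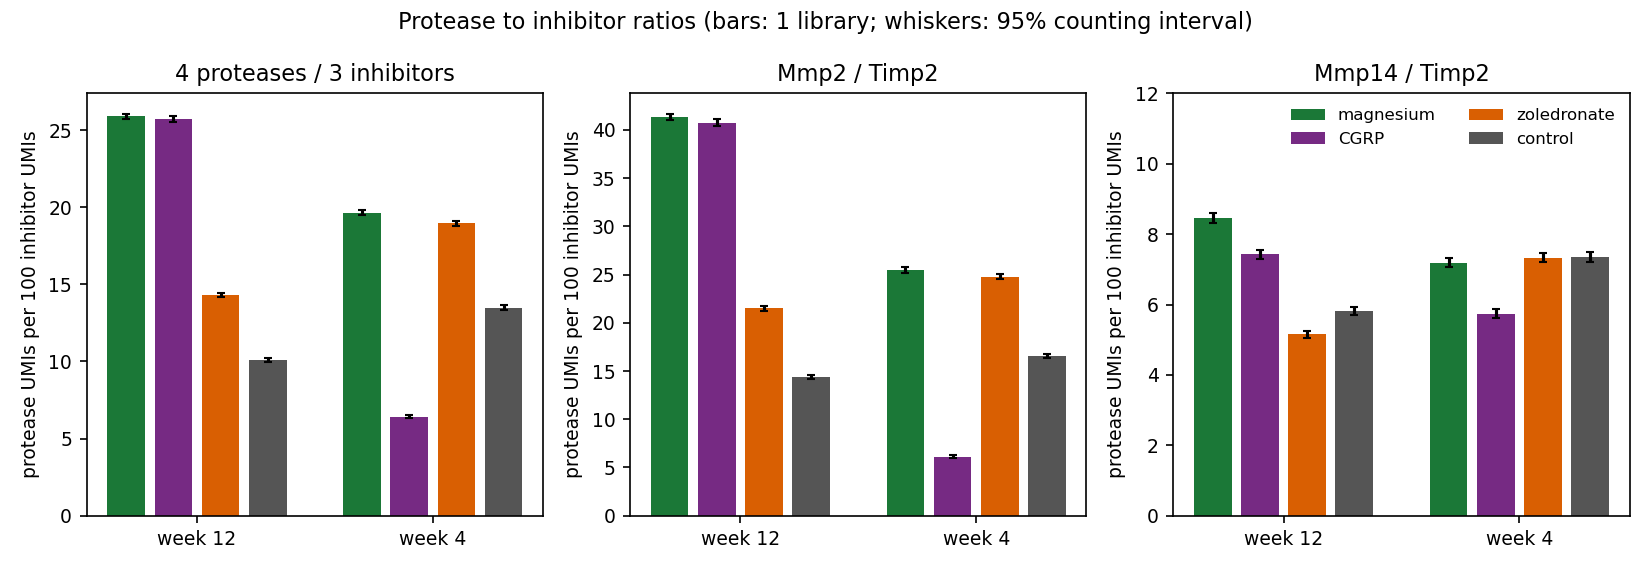
Protease UMIs per 100 inhibitor UMIs for the sum of the 4 proteases over the 3 inhibitors, for Mmp2 over Timp2 and for Mmp14 over Timp2, 1 bar per library with 95% counting intervals. Magnesium and CGRP stand above zoledronate and control at week 12, CGRP is the lowest bar at week 4, and Mmp14 over Timp2 stays between 5.15 and 8.46.

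Zoledronate alone was set against control first, to ask what the drug goes with. Mmp2 was higher in the zoledronate library at both weeks, 1.57-fold at week 12 (counting interval 1.55 to 1.60) and 1.77-fold at week 4 (1.74 to 1.80). Timp3 was 3.36-fold higher at week 12, at 45.8 CPM in zoledronate against 13.6 CPM in control, and 1.19-fold higher at week 4. Mmp14, Timp1, Timp2, Mmp3 and Mmp13 stayed within the fold on the scale of CPM plus 1 at both weeks. In control at week 12 Mmp3 was at 0.401 CPM and Mmp13 at 0.0859 CPM, so on that scale no fall could pass the fold. The fold of CPM at week 12 was 0.576 for Mmp3 (0.368 to 0.891, from 36 against 56 UMIs) and 0.448 for Mmp13 (0.138 to 1.29, from 6 against 12 UMIs). With 0.1 CPM added in place of 1, Mmp3 at week 12 was past the fold. At week 12, 2 of 7 members were past the fold upwards and 0 downwards, where 5.12% of 5915 genes with a mean of at least 10 CPM were higher and 11.9% lower. At week 4, 1 of 7 was higher and 0 lower, where 1.39% of genes were higher and 1.13% lower. Of the 7 members, 5 passed that 10 CPM filter, and Mmp3 and Mmp13 did not. The median log2 ratio of the members was -0.06 at week 12 and 0.24 at week 4, beside -0.12 and -0.00 over all genes. With TMM factors, which remove that shift of the median gene at week 12, the log2 ratio of Mmp2 was 0.76 in place of 0.65 and that of Mmp14 was 0.01 in place of -0.10. The protease to inhibitor ratio was higher in zoledronate at both weeks, by 0.51 and 0.49 on the log2 scale.

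A list of 10 cell cycle genes was lower in zoledronate than in control at both weeks, whereas Mmp2 was higher. The list summed to 147 against 891 CPM at week 12 and to 579 against 938 CPM at week 4. Barcodes with 0 UMIs of that list were then taken, a choice made after the data were seen. In them the log2 ratio of Mmp2 at week 12 was 0.38, not past the fold, and that of Timp3 was 1.10. At week 4 that of Mmp2 was 0.71. The part of the cell cycle in these ratios was not tested.

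CGRP was then set against zoledronate alone, and the direction differed between the weeks. At week 12 Mmp2 was 2.04-fold higher with CGRP (2.02 to 2.07), Mmp14 was 1.55-fold higher and Mmp13 was 15.2-fold higher in its UMIs (6.70 to 42.5, from 86 against 6 UMIs), whereas Timp3 was 0.276-fold, at 12.6 CPM with CGRP against 45.8 CPM with zoledronate. At week 4 Mmp2 was 0.219-fold (0.214 to 0.224), at 64.2 CPM with CGRP against 293 CPM with zoledronate. Mmp13 was 0.0256-fold (19 against 739 UMIs), Timp3 was 0.479-fold and Mmp14 was 0.693-fold at week 4, the last of them within the fold on the log2 scale of CPM plus 1 (-0.52). Timp1 and Timp2 stood at 0.886- to 1.13-fold of zoledronate over the 2 weeks. Mmp3 was 2.86-fold at week 12 (1.93 to 4.31, from 97 against 36 UMIs), a log2 ratio of 0.43 on the scale of CPM plus 1. It was thus within the fold, but past it with 0.1 CPM added in place of 1. At week 4 Mmp3 was 0.679-fold (75 against 110 UMIs). At week 12, 3 of 7 members were higher and 1 lower, where 5.43% of genes were higher and 4.73% lower, and at week 4, 0 were higher and 3 lower, where 4.09% were higher and 5.65% lower. Mmp13, called at both weeks, did not pass the 10 CPM filter of these shares. The median log2 ratio of the members was 0.43 at week 12 and -0.52 at week 4, beside 0.01 and -0.00 over all genes. The calls of Mmp13 and Mmp14 at week 12 ended in barcodes with at least 10000 UMIs, at log2 ratios of 0.35 and 0.58. That of Mmp13 ended over all barcodes too, at 0.55, and in barcodes under 5000 UMIs Mmp13 was at 1.25 CPM with CGRP against 6.05 CPM with zoledronate. The protease to inhibitor ratio was 0.85 higher on the log2 scale at week 12, and at week 4 its log2 ratio was -1.56.

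Magnesium was set against zoledronate alone as well, and Mmp2 and Mmp14 were higher at week 12 and nearly level at week 4. At week 12 Mmp2 was 2.15-fold higher with magnesium (2.12 to 2.17), Mmp14 1.83-fold and Mmp3 4.45-fold (3.09 to 6.57, from 164 against 36 UMIs). The call of Mmp3 ended in barcodes with 0 cell cycle UMIs, at a log2 ratio of 0.56. Timp3 was 0.0345-fold, at 1.58 CPM with magnesium against 45.8 CPM with zoledronate, and Timp1 was 1.25-fold, within the fold. At week 4 Mmp2 was 1.06-fold and Mmp14 1.01-fold, Mmp13 was 0.502-fold (355 against 739 UMIs), and Timp3 was 1.75-fold higher, at 22.1 CPM with magnesium against 12.6 CPM with zoledronate. At week 12, 3 of the 6 members listed in both libraries were higher and 1 lower, where 7.1% of 5914 genes were higher and 4.23% lower. At week 4, 1 of 7 was higher and 1 lower, where 0.575% of genes were higher and 0.592% lower. Mmp3, called at week 12, and Mmp13, called at week 4, did not pass the 10 CPM filter of these shares. The median log2 ratio of the members was 0.52 at week 12 and 0.04 at week 4, beside 0.07 and -0.01 over all genes. The magnesium and CGRP comparisons share the zoledronate library of each week, so they are not independent. The protease to inhibitor ratio was higher by 0.86 on the log2 scale at week 12 and by 0.05 at week 4.

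**Figure D4:**
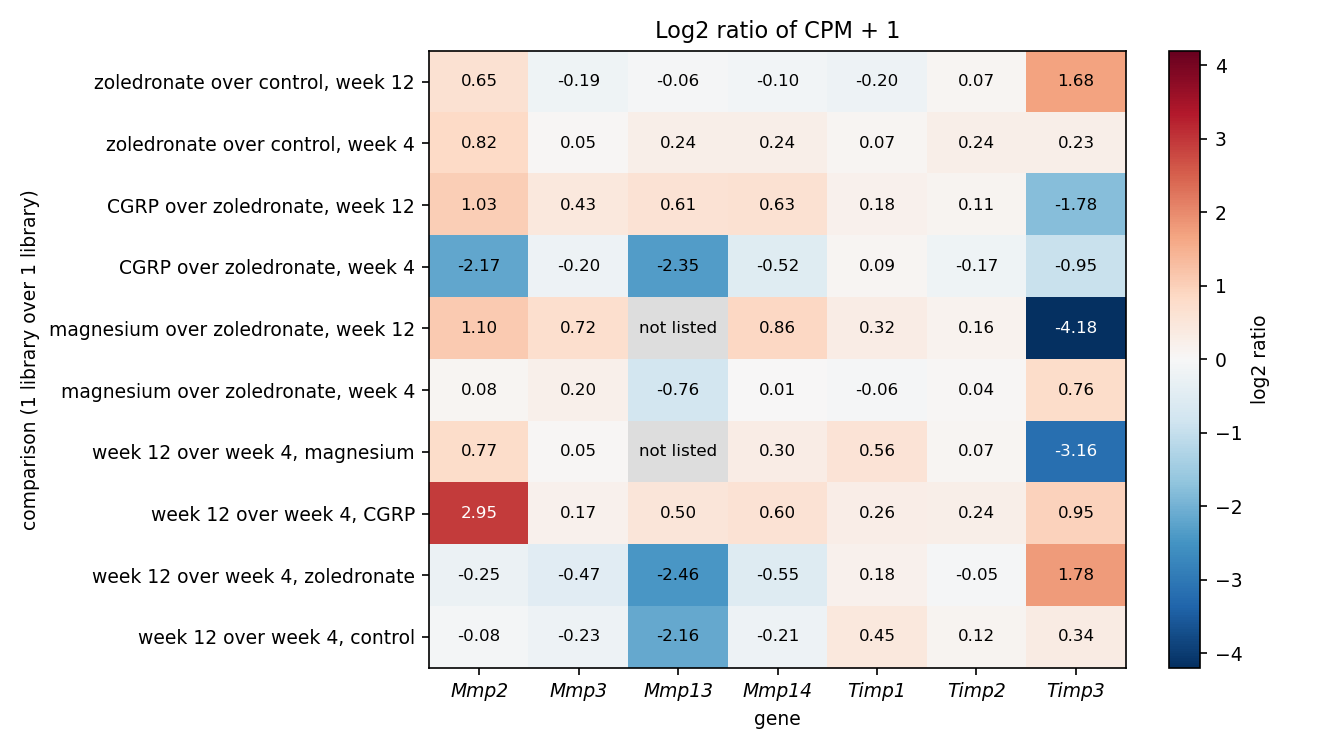
Log2 ratio of CPM plus 1 for each of the 7 genes (columns) in each of the 10 comparisons (rows), 1 library over 1 library, red for higher and blue for lower in the group named first. Mmp2 reads 1.03 and -2.17 for CGRP over zoledronate at weeks 12 and 4, and Timp3 reads -4.18 for magnesium over zoledronate at week 12; grey cells mark that Mmp13 was not listed in the magnesium library of week 12.

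Week 12 was set against week 4 within each treatment. With magnesium, Mmp2 was 1.71-fold higher at week 12 and Timp3 was 0.0715-fold, at 1.58 CPM at week 12 against 22.1 CPM at week 4. With CGRP, Mmp2 was 7.84-fold higher at week 12 (7.68 to 8.002), Timp3 2.09-fold and Mmp14 1.52-fold. Mmp13 was 4.84-fold with CGRP (2.92 to 8.43, from 86 against 19 UMIs), a log2 ratio of 0.50 on the scale of CPM plus 1 and so within the fold. It was past the fold in thinned barcodes (0.67), with a pseudocount of 0.1 (1.63) and in barcodes with 0 cell cycle UMIs (0.75). With zoledronate alone, Timp3 was 3.63-fold higher at week 12 and Mmp13 was 0.00816-fold (6 against 739 UMIs), whereas Mmp2 was 0.841-fold. Mmp3 was 0.329-fold with zoledronate alone (0.219 to 0.483, from 36 against 110 UMIs), within the fold at a log2 ratio of -0.47. It was past the fold in thinned barcodes, with a pseudocount of 0.1 and in barcodes with 0 cell cycle UMIs. In control, Mmp13 was 0.0224-fold at week 12 (12 against 569 UMIs) and Mmp2 was 0.947-fold. Mmp2 thus stood higher at week 12 in the magnesium and CGRP libraries and slightly lower in the zoledronate and control libraries.

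Members past the fold were counted in each of these 4 comparisons, beside the shares of genes with a mean of at least 10 CPM. With magnesium 1 of 6 was higher and 1 lower, where 5.36% and 4.53% of genes were, and with CGRP 3 of 7 were higher and 0 lower, where 6.51% and 6.97% were. With zoledronate alone 1 of 7 was higher and 1 lower, where 2.91% and 5.61% were, and in control 0 of 7 were higher and 1 lower, where 7.74% and 4.36% were. The 1 lower with zoledronate and in control was Mmp13 in both, which did not pass that 10 CPM filter. The median log2 ratio of the members was 0.19 with magnesium, 0.50 with CGRP, -0.25 with zoledronate and -0.08 in control, beside 0.00, -0.05, -0.05 and 0.06 over all genes. The call of Mmp14 with CGRP ended in barcodes with at least 10000 UMIs, in thinned barcodes and without the 5% of barcodes richest in UMIs, at log2 ratios of 0.55, 0.56 and 0.58. The protease to inhibitor ratio was 0.40 higher on the log2 scale at week 12 with magnesium and 2.00 higher with CGRP, and its log2 ratio was -0.41 with zoledronate and -0.42 in control.

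Within single libraries, Mmp2 was lower in barcodes that carried cell cycle transcripts. Barcodes with at least 3 UMIs of the 10 cell cycle genes, after thinning, were set against barcodes with 0. Mmp2 was at 0.395- to 0.577-fold in the barcodes with at least 3 in 8 of 8 libraries, for example at 37.0 against 93.5 CPM in CGRP at week 4 and at 345 against 598 CPM in magnesium at week 12. Timp2 was also lower in 8 of 8 libraries, at 0.749- to 0.930-fold, and Timp3 in 8 of 8, at 0.259- to 0.819-fold, with an interval below 1 in 7. Mmp14 was lower in 5 libraries and higher in 3, and Timp1 was lower in 7, with an interval below 1 in 6, at 0.895- to 1.07-fold. Barcodes of 1 library share its preparation, so these are descriptions within libraries.

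The summed cell cycle list stood at 388, 402, 147 and 891 CPM in the magnesium, CGRP, zoledronate and control libraries of week 12 and at 637, 1337, 579 and 938 CPM in those of week 4. The CGRP library of week 4, lowest in Mmp2, was the highest in this list. Barcodes with 0 cell cycle UMIs were a choice made after the data were seen. In them Mmp2 in CGRP at week 4 was lower than in zoledronate, with a log2 ratio of -1.95. At week 12 Mmp2 was higher than in zoledronate, with 1.08 for CGRP and 1.14 for magnesium. The part of the cell cycle in these differences was not tested. Barcodes with a UMI of Dcn or Lum, which encode small proteoglycans that bind collagen, made up 74.8% of the zoledronate library of week 12 and 3.83% of the control library of week 12. Mmp2 was 1.17- to 1.72-fold higher in them than in the rest in 8 of 8 libraries, and Timp2 was 1.02- to 1.14-fold.

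Mmp13 UMIs sat in a small set of barcodes that were also high in Ibsp, Spp1, Mgp and Alpl. In thinned barcodes, 17 of the magnesium, 33 of the zoledronate and 20 of the control library of week 4 had at least 2 Mmp13 UMIs, with up to 11, 22 and 34 UMIs in a single barcode. These barcodes held 76.8%, 85.7% and 87.3% of the thinned Mmp13 UMIs of the 3 libraries. At week 12, 5 barcodes of CGRP, 0 of zoledronate and 0 of control had as many, and in CGRP at week 4 there was 1. The 70 barcodes of the 3 week 4 libraries, a set defined after the data were seen, were compared with the barcodes that had 0 Mmp13 UMIs, with no test. Ibsp, which encodes the bone sialoprotein of mineralising matrix, was at 214 CPM in them against 5.70 CPM in the others. Spp1 (osteopontin) was at 6423 against 863 CPM, Mgp (matrix Gla protein) at 3537 against 408 CPM, and Alpl, the alkaline phosphatase of mineralising cells, at 226 against 31.8 CPM. Crispld2, Igsf3, Serpine2 and Lum were the other 4 of the 8 genes with the largest ratio, among genes with at least 50 UMIs in these barcodes.

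The other members were also counted in the barcodes with Mmp13. Mmp2 was at 1029 CPM in them against 275 CPM in the others, and Mmp14 at 329 against 87.7 CPM. Mmp3 was at 71.4 CPM, from 25 UMIs, against 0.666 CPM. That value came mostly from the zoledronate library, at 133 CPM in its Mmp13 barcodes, beside 11.8 CPM in magnesium and 20 CPM in control. Timp1 was at 1020.0 against 829 CPM and Timp2 at 1597 against 1161 CPM, so the soluble inhibitors differed less than the proteases. Timp3 was at 31.4 CPM, from 11 UMIs, against 14.3 CPM, and it was higher in each of the 3 libraries. The cartilage genes went different ways. Acan, which encodes the proteoglycan aggrecan, was at 386 against 125 CPM and higher in each of the 3 libraries, whereas Hapln1, its link protein, was at 17.1 against 41.1 CPM and lower in each. Sox9 was at 60.0 against 90.8 CPM and Comp at 77.1 against 45.3 CPM, both of them higher in the control library and lower in the magnesium and zoledronate libraries. Col11a1 was at 2260.0 against 2211 CPM. The other cartilage genes of the list, such as Col2a1, were too rare in any barcodes to be compared. Bglap (osteocalcin) had 6 UMIs in the Mmp13 barcodes, all in the control library. Ibsp and Alpl were higher in the Mmp13 barcodes in each of the 3 libraries.

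**Figure D5:**
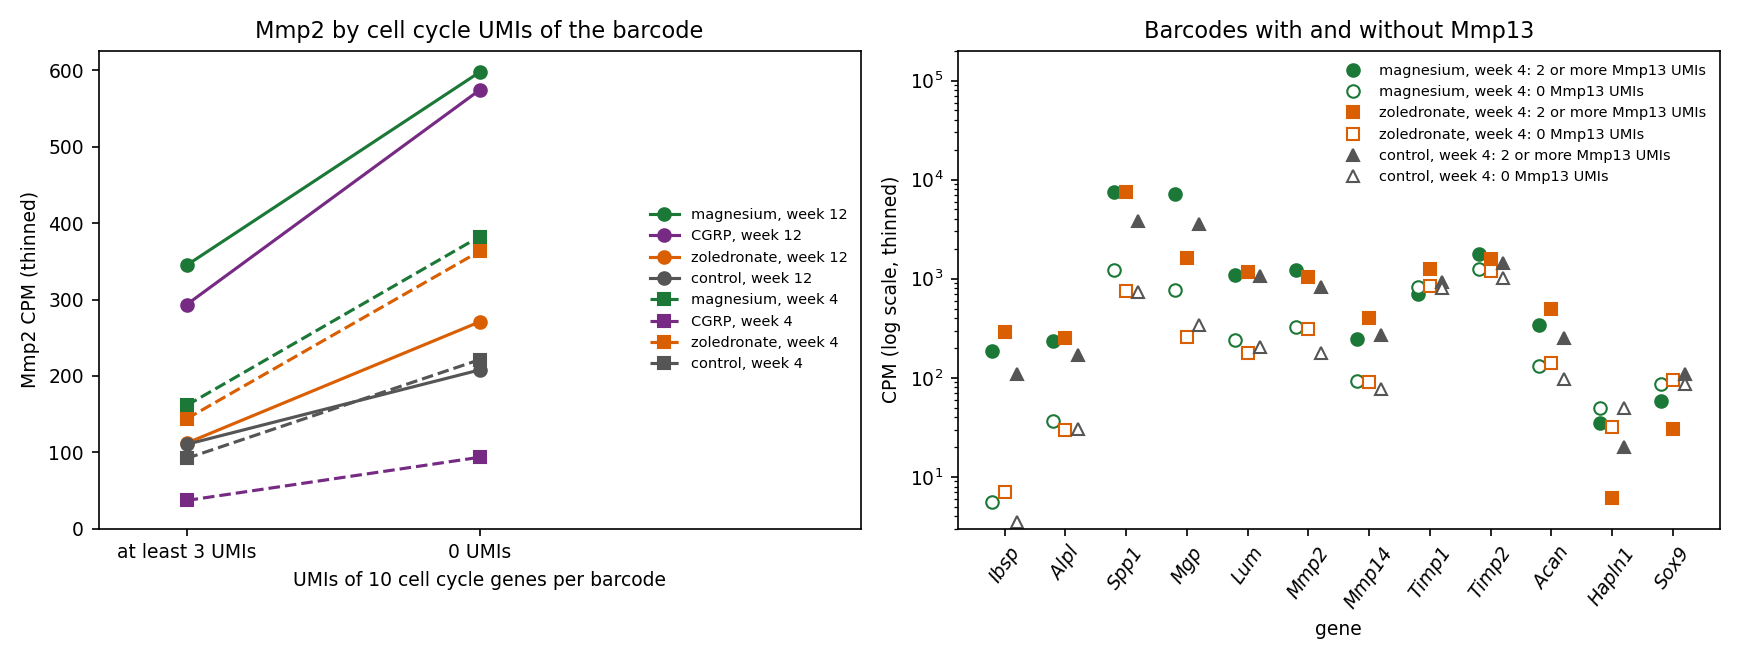
Left, Mmp2 CPM in thinned barcodes with at least 3 and with 0 UMIs of 10 cell cycle genes, 1 line per library, and right, CPM on a log scale of 12 genes in barcodes with at least 2 (filled) and with 0 (open) Mmp13 UMIs in 3 libraries of week 4. All 8 lines on the left rise towards the barcodes with 0 cell cycle UMIs, and on the right Ibsp, Alpl, Spp1, Mgp, Lum, Mmp2, Mmp14 and Acan are higher in the Mmp13 barcodes of each library.

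Related genes were counted from 7 lists of other metalloproteases, ADAMTS and ADAM proteases, other inhibitors, activators and uptake receptors, transcription factors and matrix proteins. Of 18 other metalloproteases 11 were listed in a library, but only Mmp23 averaged at least 10 CPM. Mmp23, a membrane-anchored metalloprotease, was at 168, 127, 62.2 and 160 CPM in the magnesium, CGRP, zoledronate and control libraries of week 12 and at 57.4, 48.5, 72.3 and 50.3 CPM in those of week 4. Mmp9, the gelatinase of osteoclasts and neutrophils, was at no more than 0.265 CPM. Among the 4 ADAMTS genes at this level, Adamts2, which trims procollagens, was at 2.78 CPM in CGRP at week 4 against 11.4 CPM in zoledronate. Adamts12 was at 28.2 CPM at week 12 against 47.5 CPM at week 4 with zoledronate. Adam19 was at 147 CPM in zoledronate against 80.0 CPM in control at week 4.

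Of the 38 genes of these lists at that level, 10 were higher and 6 lower in zoledronate over control at week 12, where 5.12% and 11.9% of all genes at that level were, and 1 and 0 at week 4, where 1.39% and 1.13% were. For CGRP over zoledronate 7 were higher and 2 lower at week 12, where 5.43% and 4.73% of all genes were, and 4 and 11 at week 4, where 4.09% and 5.65% were. For magnesium over zoledronate the counts were 7 and 2 at week 12, beside 7.1% and 4.23%, and 3 and 0 at week 4, beside 0.575% and 0.592%. For week 12 over week 4 they were 7 and 6 with magnesium, beside 5.36% and 4.53%, and 11 and 4 with CGRP, beside 6.51% and 6.97%. They were 1 and 4 with zoledronate, beside 2.91% and 5.61%, and 7 and 10 in control, beside 7.74% and 4.36%. The largest ratios were mostly those of the matrix genes Dcn, Lum and Acan and of the AP-1 subunits Fosl1, Fosb and Fos. In control, Dcn was at 2.28 CPM at week 12 against 148 CPM at week 4, and with CGRP it was at 178 CPM at week 12 against 9.31 CPM at week 4. Of 11 matrix genes, 9 were lower in CGRP than in zoledronate at week 4, where 5.65% of all genes and Mmp2 were lower. Dcn stood at 9.31 CPM with CGRP and 134 CPM with zoledronate, and Lum at 21.7 CPM with CGRP and 168 CPM with zoledronate. In magnesium over zoledronate at week 12, Lum was at 11.2 against 139 CPM and Dcn at 47.2 against 355 CPM, while Mmp2 was higher. Acan, the main proteoglycan of cartilage, was at 15.2 CPM at week 12 against 132 CPM at week 4 with zoledronate.

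Fosl1 was at 19.2 CPM in magnesium and 16.2 CPM in CGRP against 5.40 CPM in zoledronate at week 12, and at 19.7 CPM in control. Fosb was at 61.5 CPM in CGRP against 21.5 CPM in zoledronate at week 12. Fos and Junb were at 152 and 169 CPM in magnesium against 71.2 and 111 CPM in zoledronate at week 4. Serpine2, an inhibitor of serine proteases, was at 123 CPM in CGRP against 56.8 CPM in zoledronate at week 12.

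The genes with the pattern most like each member over the 8 libraries were found by the smallest root mean square difference of centred log2 levels among 5913 genes. For Mmp2 they were Slc44a1 (0.41), Gpx3 (0.42) and Slit3 (0.42), where Mmp2 itself deviated from its mean by 0.93. Gpx3 was at 1164 CPM in magnesium at week 12 and 226 CPM in CGRP at week 4, the same extremes as Mmp2. For Timp3 they were Wnt16 (0.53), Cilp2 (0.62) and Itgbl1 (0.70), beside a deviation of 1.14 for Timp3. Wnt16 was at 1.72 CPM in magnesium and 33.6 CPM in zoledronate at week 12. For Mmp14 they were Msrb1 (0.10), Rgs10 (0.12) and Cacna2d1 (0.13), for Timp1 Pdrg1, Cat and Plec (0.05 to 0.06), for Timp2 Cnpy2, Nkapd1 and Erlec1 (0.05 each) and for Mmp3 Glg1, Runx1t1 and Nbn (0.09 to 0.10). Mmp3 stood near or under 1 CPM, so the 1 CPM added before the log set its centred levels, and nothing is read from its matches. Mmp13 was not listed in all 8 libraries and was not matched.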

How the data were processed

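The authors deposited UMI counts that were whole numbers and not normalized, in 1 matrix of genes by barcodes for each library. Reads were aligned with STAR to Rnor_6.0, per the submitters' processing notes. Annotation, versions and cell calling were not given in the sources used here. Libraries were made with 10x V3 chemistry from 10000 cells each, per the series' design text. Every barcode had at least 500 genes, 0 mitochondrial genes were listed, and doublets were not removed here.

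CPM were computed from UMIs summed over barcodes with at least 5000 UMIs, per 1000000 of that sum, and log2 ratios used CPM plus 1. Intervals are exact 95% ones: Poisson for CPM, Clopper-Pearson for shares and ratios, conditional binomial for folds. They treat UMIs as independent and cover counting error only. With 1 library per group, no test was made. Scripts used Python 3.11.15 and R 4.3.3, were tested on simulated data, and took TMM factors from edgeR 4.0.16 and size factors from DESeq2 1.42.0 as alternatives. No label says whether animals were pooled.

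The members, lists and comparisons were chosen with earlier results of these data known. All 7 members were given in every library. From the 7 lists, the 3 genes with the largest log2 ratio in each comparison were to be named if they averaged at least 10 CPM, and for each member the 3 genes with the nearest pattern. Promoters came from RefSeq, assembly GRCr8, which differs from the build of the counts, and all 7 members had a RefSeq entry.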

Additional observations from a re-analysis of the deposited data

Results flagged for a closer look

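The following values went opposite ways in groups set under the same contrast, each with 1 library per group, and the differences were not tested. For Mmp2 the log2 ratio of CGRP over zoledronate was 1.03 at week 12 and -2.17 at week 4, a difference of 3.20. For Mmp13 the same ratio was 0.61 at week 12, from 86 against 6 UMIs, and -2.35 at week 4, from 19 against 739 UMIs, a difference of 2.96. The ratio of the 4 proteases to the 3 inhibitors was 0.85 at week 12 and -1.56 at week 4 for CGRP over zoledronate, a difference of 2.41, with Mmp2 the largest term of its numerator in both weeks.

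Timp3 had a log2 ratio of magnesium over zoledronate of -4.18 at week 12 and 0.76 at week 4, a difference of -4.94. For week 12 over week 4 its log2 ratio was -3.16 with magnesium, 0.95 with CGRP and 1.78 with zoledronate, so magnesium differed from CGRP by -4.12 and from zoledronate by -4.94. The magnesium library of week 12, with 252 Timp3 UMIs, and the zoledronate library of week 12, with 7141, each enter 2 or more of these values.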

How the results depend on the processing

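No paired analysis was possible because there was 1 library per group and the labels carry no replicate numbers, and leaving out a replicate was not possible for the same reason. Of 68 member log2 ratios, 24 were past 1.5-fold, and of these 23 remained so over all barcodes, 21 with at least 10000 UMIs, 23 after thinning, 23 without the 5% of barcodes richest in UMIs, 24 with TMM, 24 with DESeq2 size factors, 24 with a pseudocount of 0.1 and 22 in barcodes with 0 cell cycle UMIs, a setting chosen after seeing the data. None of the 24 reversed. Ratios within the fold in the main setting passed it in 2 cases after thinning, 4 with a pseudocount of 0.1 and 6 with 0 cell cycle UMIs. With that pseudocount, Mmp3 passed for zoledronate over control and CGRP over zoledronate at week 12. Mmp3 with zoledronate and Mmp13 with CGRP passed for week 12 over week 4. Among ratios within the fold, Mmp14 (zoledronate over control, week 12) and Timp2 (week 12 over week 4, zoledronate) took the other sign under TMM and DESeq2 factors, 1 ratio did so with at least 10000 UMIs, 2 did after thinning, and 4 did with 0 cell cycle UMIs. The widest of these was Mmp3 for magnesium over zoledronate at week 4, at 0.20, with -0.24 after thinning and -0.32 with 0 cell cycle UMIs.

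The protease to inhibitor log2 ratio kept its sign in 10 of 10 comparisons under each of 5 settings. Over all barcodes it was 0.46 for zoledronate over control at week 4, 0.086 for magnesium over zoledronate at week 4 and 0.36 for week 12 over week 4 with magnesium. With at least 10000 UMIs it was 0.83 (CGRP over zoledronate, week 12), 0.88 (magnesium over zoledronate, week 12), 1.97 (week 12 over week 4, CGRP) and -0.43 (zoledronate). Thinned, it was 0.46 for zoledronate over control at week 4, 0.80 and 0.81 for CGRP and magnesium over zoledronate at week 12, and 0.36, 1.96 and -0.48 for week 12 over week 4 with magnesium, with CGRP and in control. Without the richest 5% it was 0.54 for zoledronate over control, 0.81 and 0.83 for CGRP and magnesium over zoledronate, all at week 12, and 0.38, 1.98 and -0.45 for week 12 over week 4 with magnesium, with CGRP and in control. With 0 cell cycle UMIs it was 0.42 for zoledronate over control at week 12 and at week 4, and 0.31, 1.89, -0.50 and -0.50 for week 12 over week 4 with magnesium, CGRP, zoledronate and in control.

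Members past the fold numbered 2 for CGRP over zoledronate at week 12 with at least 10000 UMIs. With 0 cell cycle UMIs they numbered 1 for zoledronate over control at week 12, and 4 and 2 for week 12 over week 4 with zoledronate and in control, and genes past the fold numbered 565 and 97 for zoledronate over control at weeks 12 and 4. With no filter on low values, genes past the fold numbered 1761 and 275 for zoledronate over control at weeks 12 and 4, 1219 and 1038 for CGRP over zoledronate, 1424 and 140 for magnesium over zoledronate, and 1230, 1519, 973 and 1343 for week 12 over week 4 with magnesium, CGRP, zoledronate and in control. That setting tests more genes, most of them with few UMIs, and the cause of the other moves was not tested. Depth limits Mmp13 at week 12 and in CGRP at week 4 (19 UMIs), and Mmp3 everywhere, which rest on 6 to 164 UMIs a library.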
